A study of Caenorhabditis elegans with 2 samples.

Results

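The subject here is a set of 6 genes that act where new polypeptides leave the ribosome, or that lie beside such a gene: icd-1 and icd-2, which encode the subunits of the nascent polypeptide-associated complex, sec-61.A, sec-61.B and sec-61.G, which encode the subunits of the protein translocation channel, and wwp-1, a ubiquitin ligase gene next to icd-2. They are 6 of the 19973 nuclear protein-coding genes of the annotation. The members were chosen by the signal values and ranks of regions near their starts, with results of these data known. The rule took every listed region whose summit lay within 2 kb of the annotated start of the gene. Signal value, rank and distance are therefore given below as a description, with no test.

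The experiment was chromatin immunoprecipitation followed by sequencing (ChIP-seq) in whole Caenorhabditis elegans of the last larval stage, L4, with both sexes pooled. There was 1 group of 2 biological replicates of strain OP231, genotype unc-119(ed3) III; wgIs231. The strain carries an integrated transgene that expresses ZK546.5 with GFP and FLAG at its C-terminus, so the protein followed is a tagged copy in a mutant background, and signals from all tissues of the animal are mixed. The depth of the libraries is unknown, since the deposited lists hold regions and no read counts. The pooled list and each replicate list held 30000 regions, described by the depositors as peaks and background, and the set that passed IDR (irreproducible discovery rate, a measure of shared high ranks) held 92 peaks. Each region carries a signal value that came from the authors' caller, on a scale that neither the labels nor the files state, and it is read only within a list. It is therefore also given as a multiple of the median of its list, which was 12.7 in the pooled list, 8.98 in replicate 1 and 6.39 in replicate 2.

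As background, the nascent polypeptide-associated complex is a dimer of an alpha and a beta subunit that sits at the ribosomal exit tunnel. It shields new chains and keeps ribosomes without a signal sequence away from the endoplasmic reticulum (ER). Chains that do carry such a sequence pass into or through the ER membrane by the SEC61 channel, whose alpha subunit forms the pore and whose small beta and gamma subunits lie beside it. In C. elegans, loss of icd-1 leads to cell death in embryos, and sec-61.G, also known as emo-1, is needed in the germ line for oocyte production.

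The sequence under the sec-61.G peak is shown first, because it holds a word of 12 bases that recurred under all 3 member peaks of the IDR set. It covers 201 bases around the summit, chrV:10897284-10897484 of ce11 (WBcel235, RefSeq genome), read 5′ to 3′ on the minus strand, the strand of the gene. The capitals mark the word.
sec-61.G: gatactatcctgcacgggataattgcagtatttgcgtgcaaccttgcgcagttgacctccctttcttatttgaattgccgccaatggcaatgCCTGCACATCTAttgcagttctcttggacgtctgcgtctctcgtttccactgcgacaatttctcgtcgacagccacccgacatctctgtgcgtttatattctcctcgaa

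The windows of 101 bases around the nearest upstream pooled-list summit of the other NAC and channel genes are shown for contrast. They lack the word on both strands. They lie at chrII:6589119-6589219 for icd-1, chrIV:14825360-14825460 for sec-61.A and chrIV:2388833-2388933 for sec-61.B, each on the minus strand, the strand of its gene. The capitals in the last mark ATCTAA, a shorter word described below.
icd-1: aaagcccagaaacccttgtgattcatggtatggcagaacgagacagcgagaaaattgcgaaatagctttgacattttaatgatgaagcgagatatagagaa
sec-61.A: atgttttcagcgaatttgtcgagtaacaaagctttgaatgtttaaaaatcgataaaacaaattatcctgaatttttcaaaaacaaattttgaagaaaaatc
sec-61.B: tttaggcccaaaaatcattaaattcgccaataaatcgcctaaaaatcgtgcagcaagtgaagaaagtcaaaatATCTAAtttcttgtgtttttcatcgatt

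The members fell into 2 kinds. Strong IDR peaks lay within 2 kb of the starts of icd-2, wwp-1 and sec-61.G, which is 3 of the 6 genes, while icd-1, sec-61.A and sec-61.B had only regions at or below 2.24 times the median of their list. Over all nuclear protein-coding genes, 123 (0.616%) had an IDR summit within 2 kb. The rule rests on these same peaks, so nothing is read from the difference between the shares. The same 3 members had a region among the top 92 of both replicate lists within 2 kb, a state shared by 84 of the 19973 genes (0.421%). All 6 members had at least 1 pooled-list region within 2 kb, as did 70.1% of all nuclear protein-coding genes, so the presence of a listed region does not mark a gene.

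**Figure D1:**
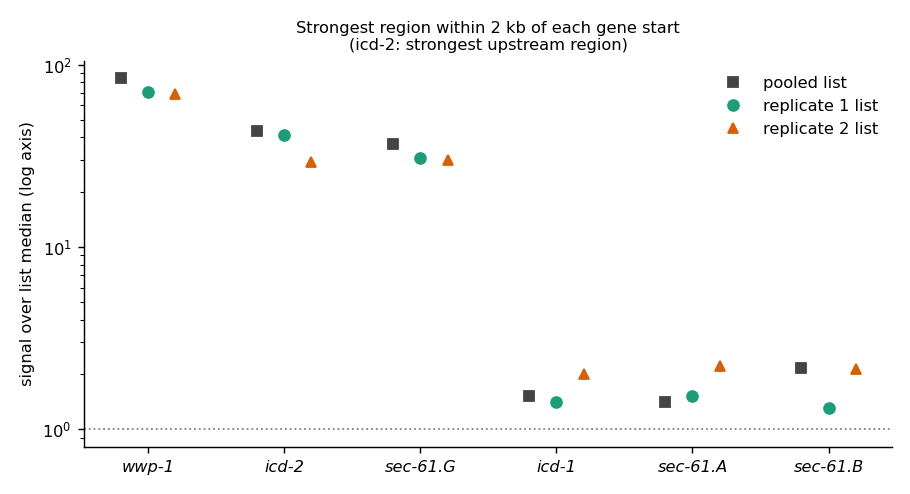
The strongest listed region within 2 kb of each gene start (for icd-2, the strongest upstream region) is plotted as its signal over the median of its list, on a log axis, for the pooled list and both replicate lists. The regions of wwp-1, icd-2 and sec-61.G lie between 29.2 and 84.1 times the median, and those of icd-1, sec-61.A and sec-61.B between 1.31 and 2.24 times.

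The alpha subunit gene icd-2 (WBGene00022042) spans 535791 to 536587 of chromosome I on the plus strand. Its upstream peak ran from 535284 to 535617 on chromosome I, was 334 bp wide and had a pooled signal of 553 at rank 4. The signal was 369 in replicate 1, at rank 3, and 186 in replicate 2, at rank 8. Both replicates thus placed it among their 8 highest regions, with a summit 334 bp upstream of the gene start in replicate 1 and 342 bp upstream in replicate 2. The start codon lay 359 bp from the pooled summit. The interval between icd-2 and psf-3, a gene of the GINS complex of DNA replication that lies upstream on the same strand, is 446 bases long. The summit was inside that interval, and 61 bases of the peak reached over the end of psf-3.

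The second strong peak beside icd-2 lay past its other end, towards wwp-1. It ran from 536670 to 537062 on chromosome I and was 393 bp wide, against a median width of 300 bp in the pooled list. Its signal was 1072 in the pooled list, 637 in replicate 1 and 441 in replicate 2, and it ranked 1 in all 3 lists. It was the highest region of each list.

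The summit of the second peak lay 284 bp past the end of icd-2 and 251 bp upstream of wwp-1 (WBGene00007009, plus strand, chromosome I from 537122 to 542204). The protein of wwp-1 is a HECT-type ubiquitin ligase with WW domains, known in C. elegans for its part in the long life of worms on restricted diets. The space between icd-2 and wwp-1 is 534 bases and holds Y65B4BR.10, a non-coding RNA gene on the minus strand, with the summit inside it, 60 bp downstream of its start. A second annotated transcript start of wwp-1 lay 2639 bp from the summit, so the peak was at the start of the longer form. The lists cannot tell which of the overlapping features a peak belongs to.

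The 2 peaks were separate in every list. Their summits were 1422 bp apart in the pooled list, with 1052 bp between their edges, and no listed region of any list had its summit between them. The peak towards wwp-1 was 1.94 times the upstream peak in the pooled list, 1.72 times in replicate 1 and 2.37 times in replicate 2. Both replicates thus gave the same order. The size of each ratio rests on the scale of the signal value, which is not stated. Around this pair the lists held only low regions. Upstream of icd-2 these reached 17.02 in the pooled list at 1808 bp from the start, 14.6 in replicate 1 at 1803 bp, and 5.61 in replicate 2 at 1422 bp. Within 2 kb of the wwp-1 start on its downstream side, replicate 2 alone listed a region, with a signal of 8.08 at rank 7057.

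**Figure D2:**
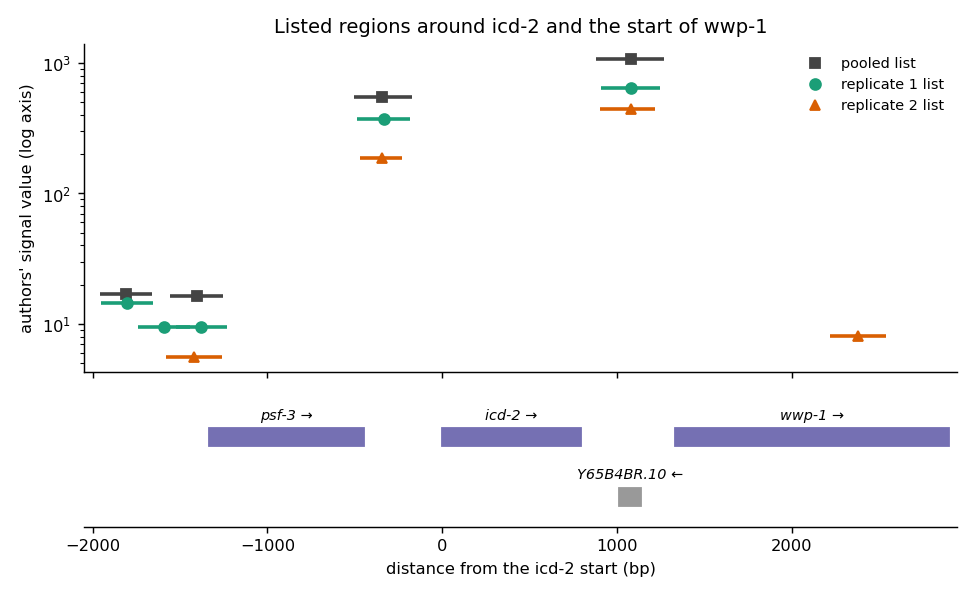
Listed regions of the pooled list and both replicate lists are drawn by their distance from the icd-2 start in bp, with the signal value on a log axis, horizontal bars for the width and symbols for the summit; boxes below show the annotated genes and their direction, with wwp-1 cut at the edge. The 2 tall regions, with pooled signals of 553 upstream of icd-2 and 1072 upstream of wwp-1, flank icd-2 in each list.

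The gamma subunit gene sec-61.G (WBGene00001303) is on the minus strand of chromosome V from 10896658 to 10897143. Its peak ran from 10897219 to 10897523, was 305 bp wide, and had a signal of 470 at rank 8 of the pooled list. In replicate 1 the signal was 278 at rank 8, and in replicate 2 it was 193 at rank 7. The summit was 241 bp upstream of the gene start in the pooled list and in replicate 2, and 249 bp upstream in replicate 1. Over its list's median the peak stood at 36.9 times in the pooled list, 31.0 times in replicate 1 and 30.2 times in replicate 2, so the replicates differed little on that scale. The interval upstream of sec-61.G is open for 1292 bp, up to the start of F32D8.7 on the other strand, and the only other gene start within 1 kb of the summit was that of F32D8.13, at 841 bp. Of the 3 member peaks it alone overlapped no annotated gene.

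A weaker region past the end of sec-61.G was listed in replicate 1, at rank 276 with a signal of 19.1, and its summit lay 632 bp downstream of the gene start, near the start of F32D8.13. The pooled list gave it a signal of 16.7 at rank 4781, and replicate 2 listed no region there. Outside the window, the nearest pooled region was 2415 bp away with a signal of 29.4 at rank 145. The farthest IDR summit inside the window of any member was the icd-2 peak as seen from wwp-1, at 1673 bp.

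Of the 3 member peaks, that of icd-2 differed most between the replicates. The ratio of replicate 1 to replicate 2 signal was 1.45 at the wwp-1 peak and 1.44 at sec-61.G, close to the median of 1.47 over the 71 nuclear IDR peaks listed in both replicates. At the icd-2 peak it was 1.98, above the upper quartile of 1.80 but within the range of 0.655 to 5.27. With 1 value per replicate this difference has no error of its own.

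The beta subunit gene icd-1 (WBGene00002045, minus strand, chromosome II from 6587577 to 6588655) had no IDR peak nearby, and the nearest IDR summit on its chromosome was 516552 bp away. Its highest pooled region had a signal of 19.4 at rank 2046 and lay 1061 bp downstream of the start, at the far end of the gene. The same place had a signal of 12.6 at rank 3947 in replicate 1 and 6.16 at rank 16470 in replicate 2. Upstream, replicate 2 listed a region at 448 bp with a signal of 12.8 and rank 665, the pooled list gave 11.3 at 514 bp, and replicate 1 listed nothing that overlapped it. Over the list medians the best regions stood at 1.52 times in the pooled list, 1.41 times in replicate 1 and 2.01 times in replicate 2. By the strongest pooled region within 2 kb, 8.05% of all nuclear protein-coding genes stood higher than icd-1. The share was 14.7% in replicate 1 and 2.96% in replicate 2. The upstream regions at 448 and 514 bp lie in a shared interval: vps-32.1, a gene of the ESCRT membrane-sorting machinery, starts 1053 bp away on the other strand, and the non-coding RNA genes C56C10.14 and C56C10.15 lie between. Farther upstream, replicate 1 listed a region at 1295 bp with a signal of 6.96 and rank 28104, and replicate 2 one at 1165 bp with a signal of 6.53 and rank 14115, both with the summit inside vps-32.1.

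The pore gene sec-61.A (WBGene00013311, minus strand, chromosome IV from 14822540 to 14825264) had 4 pooled regions within 2 kb, with signals from 14.2 to 17.9. The one at the promoter had its summit 146 bp upstream, with a signal of 15.2 at rank 7549 in the pooled list and 13.8 at rank 2477 in replicate 1. Replicate 2 listed none there. Its own regions were 1179 and 1941 bp upstream, with signals of 12.5 and 14.3 at ranks 797 and 338. The nearer summit was inside both hhat-2 and rps-18, a ribosomal protein gene that starts 415 bp away on the other strand. The farther summit was inside hhat-2. Of the 2 regions in replicate 1 and the 2 in replicate 2, 0 overlapped. The share over all listed regions is not given here, so nothing about sec-61.A is read from this count. The strongest region stood at 1.40 times the median in the pooled list, 1.53 times in replicate 1 and 2.24 times in replicate 2. The nearest IDR summit was 791180 bp away.

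The beta subunit gene sec-61.B (WBGene00021427, minus strand, chromosome IV from 2388185 to 2388675) had 5 pooled regions within 2 kb. The strongest had a signal of 27.7 at rank 195, 1604 bp upstream. That place had a signal of 13.7 at rank 441 in replicate 2 but 8.995 at rank 14897 in replicate 1, where it was at 1.002 times the list's median. The summit lay 20 bp past the end of trap-3, which encodes a subunit of the translocon-associated protein complex and starts 770 bp from sec-61.B on the other strand. At the promoter itself, 208 bp upstream, the pooled signal was 10.02 at rank 28842, and replicate 1 gave 8.73 at rank 16282. By the strongest pooled region within 2 kb, 1.10% of all nuclear protein-coding genes stood higher than sec-61.B and 12.4% higher than sec-61.A. For sec-61.B the share was 19.8% in replicate 1, by a region 1501 bp downstream, and 2.01% in replicate 2. For sec-61.A it was 9.62% in replicate 1 and 1.58% in replicate 2. Neither gene had a region over 2.24 times the median in any list.

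**Figure D3:**
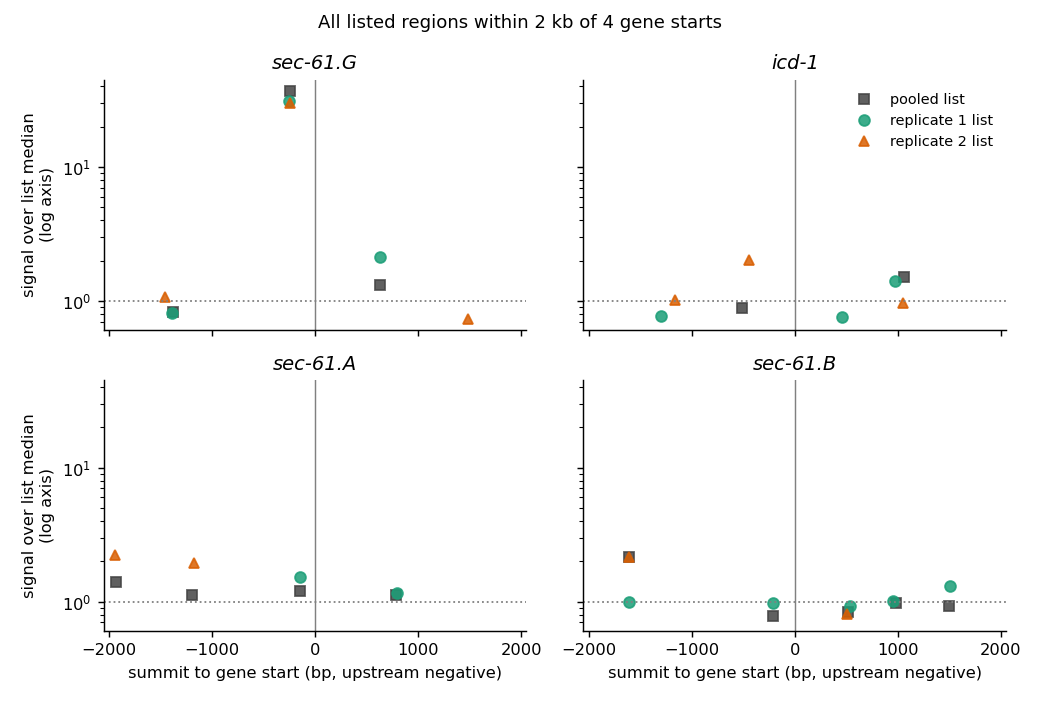
Every listed region within 2 kb of the start of sec-61.G, icd-1, sec-61.A and sec-61.B is plotted by the distance of its summit from the gene start in bp (upstream negative) and by its signal over the median of its list, on a log axis. The sec-61.G peak, at 30.2 to 36.9 times the median, stands apart from all other regions shown, of which the highest is at 2.24 times.

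The 12-base word CCTGCACATCTA lay under each of the 3 member IDR peaks. The word was found by an earlier analysis of these same peaks, so its presence is a description of them. Its centre was 2.5 bp from the sec-61.G summit, 9.5 bp from the icd-2 summit and 11.5 bp from the summit upstream of wwp-1. It was 243.5 bp from the start of sec-61.G, 332.5 bp from that of icd-2 and 239.5 bp from that of wwp-1. At sec-61.G it read along the strand of the gene, and at icd-2 and wwp-1 it read against it. Each peak held 1 copy.

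The word is rare, and the search covered both strands. The nuclear chromosomes hold 40 copies. Of all protein-coding promoters, 6 of 19973 (0.03%) held it from 200 to 300 bp upstream, a window of 101 bases. That window takes in the word at wwp-1 and sec-61.G but not at icd-2, where it lay 332.5 bp upstream. Over 500 bp upstream the count was 22 of 19973 (0.11%), and 53 genes (0.265%) had it within 2 kb of the start. Among the 6 members those 53 genes included icd-2, wwp-1 and sec-61.G. Within 50 bp of the summit it was in 13 of 73 nuclear IDR peaks (17.8%) and in 2 of the 29906 other nuclear pooled-list regions. Those 2 lay near klc-1, with a signal of 16.9, and near ent-1, with a signal of 10.7, so the word also occurs where the signal is low.

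The word's surroundings differed between the members. The icd-2 and wwp-1 peaks shared a run of 20 bases around it, with 6 further bases before the word and 2 after, and they matched at 13 of the 20 flanking bases nearest to it. The nuclear chromosomes hold that run 4 times, and all 4 copies lay in IDR peaks: those of icd-2, wwp-1, tba-2, an alpha-tubulin gene, and F01G4.6, the gene whose divergent neighbour is the prefoldin gene pfd-1. From icd-2 to tba-2 and to F01G4.6 the shared run was 27 bases long. At sec-61.G the run shared with icd-2 or wwp-1 was the word alone, and the longest it shared with any of the other 12 word-bearing peaks was 16 bases, with that of farl-11. In 12 of the 13 peaks the base after the word was A, and sec-61.G was the exception. These features were noted after the sequences were seen.

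The difference is visible in the 30 bases around the word, read in the direction of the word, at sec-61.G and at the 5 other word-bearing peaks shown, named by the nearest protein-coding start. They lie at chrV:10897372-10897401 on the minus strand, chrX:2242984-2243013 on the plus strand, chrIII:6972082-6972111 on the plus strand, chrIV:1709933-1709962 on the plus strand, chrII:7105164-7105193 on the minus strand and chrII:11980304-11980333 on the plus strand, in the order given.
sec-61.G: atggcaatgCCTGCACATCTAttgcagttc
rpl-11.2: tgtgtcctgCCTGCACATCTAactttacgc
rfc-4: tcgttgctgCCTGCACATCTAactcctagc
pbs-1: accggactgCCTGCACATCTAactttcctg
farl-11: gtagaaatgCCTGCACATCTAaacgttaaa
Y17G7B.20: gtccagcaaCCTGCACATCTAatttgctgg

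Shorter words were searched as well. The first 8 bases of the longer word, CCTGCACA, and its first 6, CCTGCA, are parts of it. Their presence in the 3 strong member peaks therefore follows from that of the longer word and adds nothing to it. Neither was in the icd-1, sec-61.A and sec-61.B regions. CCTGCA occurred a second time in the sec-61.G peak, 89.5 bp from the summit. ATCTAA overlaps the end of the longer word at icd-2 and wwp-1, is absent from the sec-61.G peak, and lay 25.5 bp from the low sec-61.B promoter summit. ACCGTA was in none of the 6 regions searched. In the windows of icd-1, sec-61.A and sec-61.B the closest match to the 12-base word had 5 mismatches, which is also the median over 29979 nuclear pooled-list regions. The windows of the 3 strong peaks had GC contents of 43.6% at icd-2, 51.5% at wwp-1 and 48.5% at sec-61.G, against 39.6% at icd-1, 24.8% at sec-61.A and 31.7% at sec-61.B and a median of 30.7% over the pooled list. The part of base composition in the signal was not tested.

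**Figure D4:**
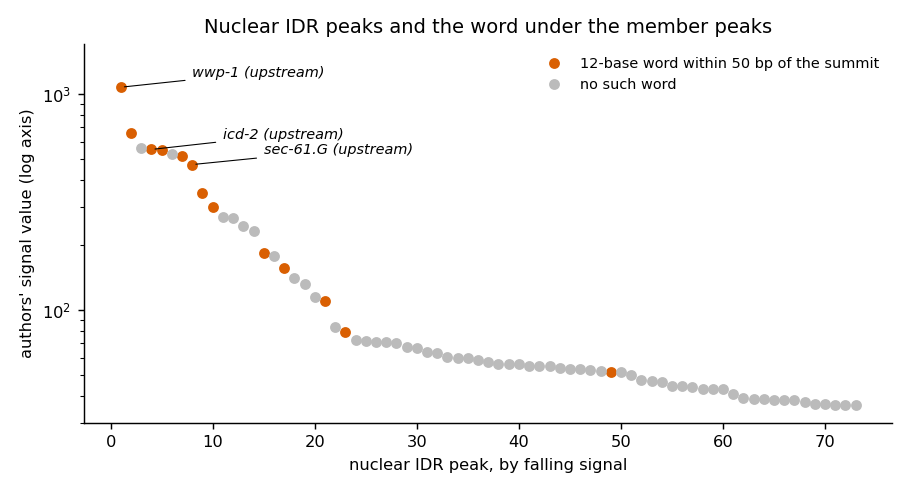
The 73 nuclear IDR peaks are plotted in falling order of the authors' signal value, on a log axis, with filled orange points for the 13 that hold the 12-base word within 50 bp of the summit. The peaks upstream of wwp-1, icd-2 and sec-61.G, with signals of 1072, 553 and 470, are 3 of the orange points at the top.

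By rank in both replicates, the peaks most like the members were other leading nuclear peaks. Likeness was the summed absolute difference of log2 rank over the 2 replicates, so it rests on 2 samples, and the 3 member peaks themselves were left out of the search. The nearest to the peak upstream of wwp-1 were tba-2, ranked 2 in both replicates, the RNA-binding protein gene sqd-1, ranked 5 and 3, and tmem-107, ranked 4 and 6. The nearest to icd-2 was tmem-107, with a difference of 0.83, then egl-30, the gene of a G protein alpha subunit, with 1.68, and Y17G7B.20 with 1.91. The nearest to sec-61.G were Y17G7B.20 with 0.68, egl-30 with 0.90 and the non-coding RNA gene C08F8.13 with 1.00, the peak shared by F01G4.6 and pfd-1. Of these, sqd-1 and egl-30 lacked the 12-base word. Between the peaks of wwp-1 and tba-2 the difference was 2.00.

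Other genes of the pathway mostly lay away from IDR peaks, as did most nuclear protein-coding genes. The lists named 66 annotated genes, the 6 members included, and 5 had an IDR summit within 2 kb (7.58%, against 0.616% of all nuclear protein-coding genes). The lists were written with earlier results of these data known, and 3 of the 5 are members, so the share is not independent of the choice. Without the members, 2 of 60 genes had one (3.33%). These were pfd-1, a subunit of the prefoldin chaperone, with a signal of 513 at 312 bp upstream, and cct-8, a subunit of the CCT chaperonin, with a signal of 40.9 at 388 bp upstream. The starts of Y55F3AR.4, at 221 bp, and of the protein-coding gene Y55F3AR.2, at 233 bp, lay nearer to the cct-8 summit, and the pfd-1 peak is the one shared with C08F8.13 and F01G4.6. Both chaperones act on new chains in the cytosol. At pfd-1 the replicates gave ranks of 7 and 4, and at cct-8 ranks of 103 and 144, outside the top 92 of each.

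Of the lists for the ER side, none had an IDR summit within 2 kb other than that of sec-61.G. Only 0.616% of all nuclear protein-coding genes had one, so nothing about the ER genes is read from this absence. The lists cover 6 translocon partners, 4 signal peptidase genes, 2 genes of the signal recognition particle and 5 of the oligosaccharyltransferase. They also cover 12 ER chaperones and 6 genes of the ER membrane complex and tail-anchor insertion. Within them the highest pooled regions were those of trap-3, at 27.7 and shared with sec-61.B, of asna-1, the tail-anchor targeting ATPase gene, at 24.02, of spcs-3, a signal peptidase subunit gene, at 23.2, of trap-2 at 22.1 and of the ER chaperone gene enpl-1 at 22.1. Each ranked in the pooled top 1000, as did a region within 2 kb of 14 of the 66 list genes and of 4.2% of all nuclear protein-coding genes. Of the 14, 4 are members chosen by their signal, and without the members the count was 10 of 60. Only pdi-2, a protein disulfide isomerase gene, held the 12-base word within 2 kb among these lists, and its best pooled signal was 11.1 at rank 22392. The ER values above are pooled. At spcs-3 the best region lay 1129 bp upstream in the pooled list and replicate 1, and 1106 bp in replicate 2. The best asna-1 region was 63 bp upstream in the pooled list but 1497 and 1586 bp downstream in the replicates. That of enpl-1 ranked 1083 in replicate 1, 1526 bp upstream, and 17841 in replicate 2, 511 bp downstream. For trap-2 it was 303 bp upstream, but 914 bp downstream in replicate 1 and 138 bp upstream in replicate 2.

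On the cytosolic side, 5 of 18 chaperone genes had a region in the pooled top 1000, beside 4.2% of all nuclear protein-coding genes. Besides pfd-1 and cct-8 these were hsp-1, the constitutive Hsp70 gene, with 35.7 at rank 98 and 381 bp upstream, the DnaJ gene dnj-12 with 29.03 at rank 153, and cct-1 with 25.9 at rank 303. For hsp-1 the best region within 2 kb ranked 105 in replicate 1, also upstream of the start. In replicate 2 the best hsp-1 region ranked 2057 but lay 1934 bp downstream, away from the pooled region. For cct-1 the best region ranked 23362 in replicate 1, 1498 bp downstream, and 76 in replicate 2, upstream as in the pooled list. The hsp-1 and cct-1 ranks thus belong to different places in the 2 replicates, and each gene stood high in 1 replicate. For dnj-12 the best region within 2 kb ranked 1192 in replicate 1 and 165 in replicate 2. Among 8 HECT ubiquitin ligase genes wwp-1 alone had an IDR peak or a top 1000 region within 2 kb. Over all nuclear protein-coding genes the shares were 0.616% and 4.2%, and wwp-1 was chosen by its signal. These lists were written with earlier results known, so the counts are descriptions.

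**Figure D5:**
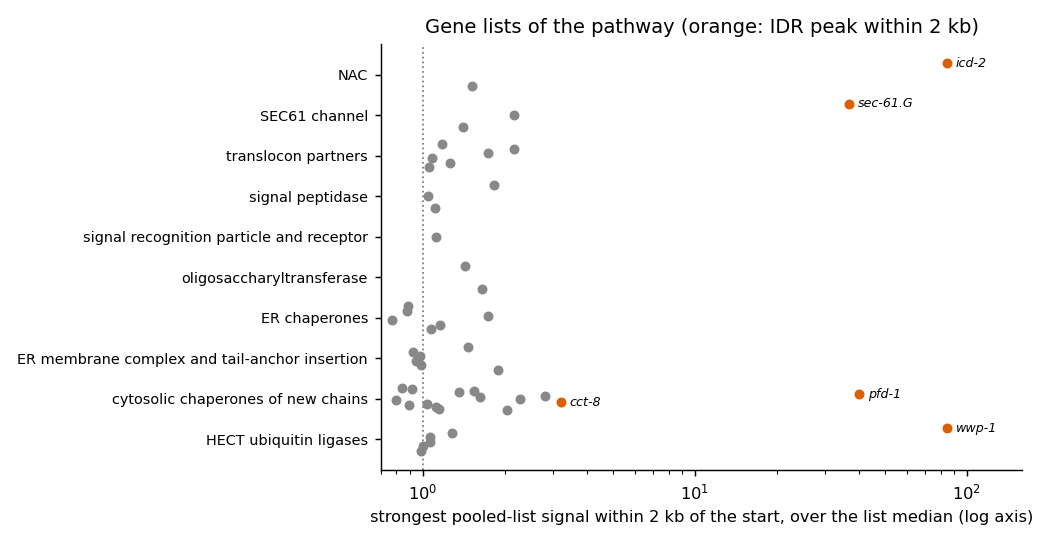
For each gene list the strongest pooled-list region within 2 kb of the start of each gene is plotted as its signal over the list median, on a log axis, with orange points for genes with an IDR peak within 2 kb; list genes with no pooled region there are not drawn. The orange points are icd-2, sec-61.G, pfd-1, cct-8 and wwp-1, where icd-2 and wwp-1 stand at the same value because the region of 1072 lies within 2 kb of both starts.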

How the data were processed

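ChIP-seq of tagged ZK546.5 was analysed from 2 biological replicates of 1 group. The authors deposited region lists on ce11 in narrowPeak form, with a signal value per region from their peak caller. Per the deposited README texts, the lists were made from ChIP alignments with a control alignment, per replicate and for both pooled, and these were the input from which the IDR set came. No label or file used here names the aligner, the peak caller, a tool version or the threshold used in IDR. Control libraries and ce10 lists were not used here. Depth is unknown, so no interval was computed.

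Summits were set against gene starts of Ensembl release 115 (WBcel235, the same assembly as ce11), and sequence was read from the RefSeq genome of that assembly with pysam 0.24.0 and pandas 2.3.3 in Python 3.11.15. Ranks are by signal value within a list. Shares over genes used all 19973 nuclear protein-coding genes. Word searches were tested on simulated sequences. No statistical test was run: there is 1 group, and the members and lists were chosen with earlier results of these data known. Named genes were the 6 members, genes with a start within 1 kb of a member's IDR summit, list genes with an IDR summit or a pooled top 1000 region within 2 kb, and the 3 nuclear IDR peaks, other than members' own, most like each member peak. Other word-bearing peaks, pdi-2, klc-1, ent-1, the neighbours of cct-8 and pfd-1 and neighbours beyond 1 kb were named after their values were seen. The symbol sec-62 and protein-coding genes with an srpr symbol were not matched in the annotation. The srpr symbols there are non-coding RNA genes, 5 in number, with no IDR summit within 2 kb.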

Additional observations from a re-analysis of the deposited data

How the results depend on the processing

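Of 31 alternative settings, 29 kept the count within a factor of 1.5 of the reported one. For the members and their word this was largely set in advance, as given below. Members with a strong region still numbered 3 with windows of 1000 bp or 500 bp, and with transcript starts in place of gene starts. The count was also 3 with the stronger 46 IDR peaks, or the top 92 regions of a single replicate. The members were chosen by these signals and ranks. Each replicate ranked their 3 peaks among its 8 highest regions, and the pooled summits lay 241 to 342 bp from the starts. These settings thus could not lower the count, and its stability is no support. The word count stayed at 3 within 75 bp, over the whole peak and with 1 mismatch allowed, the last chosen after seeing the data. Each of these settings is looser than the main one, so the count could not fall and its stability is no support. Members with any pooled region numbered 6, and 5 within 500 bp. The background of 123 genes with an IDR summit became 93 within 1000 bp, 73 within 500 bp and 54 with the stronger IDR peaks, as fewer positions or peaks entered. Without replicate 1 it was 116 and without replicate 2 it was 111, and the list genes with such a summit numbered 5 and 4. No paired analysis was possible because there is 1 group. The lists carry no depth, so low regions such as those of icd-1, sec-61.A and sec-61.B cannot be told apart from background.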
